A study of Mus musculus with 13 samples.

Results

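The immediate early response genes are read here across 13 libraries of mouse submandibular gland, a major salivary gland. The set has 10 members, taken by gene symbol: Fos, Fosb, Jun, Junb, Egr1, Ier2, Ier3, Atf3, Dusp1 and Klf6. Of these 10 genes, 9 were listed in the deposited normalised table of 17957 entries, and the same 9 were among the 14727 genes kept for testing. Fosb was listed only in the deposited count table and was not tested. No member passed the test of a difference between groups after adjustment over all genes tested. Fos, Egr1 and Dusp1 varied more between glands of 1 group than most genes did, and the highest values of Fos and Egr1 lay in the same 2 libraries.

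Immediate early genes are switched on from existing transcription factors, without new protein synthesis, soon after growth factors, calcium signals, nerve input, stress or injury reach a cell. Kinases of the ERK, JNK and p38 cascades act on factors such as SRF with its ELK partners and on CREB, and the transcripts made are short lived. Fos, Fosb, Jun, Junb and Atf3 encode subunits of AP-1 and related bZIP dimers, Egr1 and Klf6 encode zinc finger factors, Dusp1 encodes a phosphatase that switches MAP kinases off, and Ier2 and Ier3 encode further early response proteins. The same genes are known to respond to the removal and cutting of tissue, so they are also read as a check of how a sample was handled.

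Glands came from mice of the strain given as CH3, aged 1 year, and were taken 300 days after treatment. The PreIR-GFP group, 5 libraries, had irradiated glands injected with AAV2-GFP, an adeno-associated virus vector for green fluorescent protein, 10 days before irradiation. The PreIR-NTN group, 5 libraries, had irradiated glands injected at the same interval with Cere-120 (AAV2-NRTN), which carries neurturin, a GDNF family ligand for parasympathetic neurons. The NonIR group, 3 libraries, was not irradiated. Neither the promoter of either vector nor any vector treatment of NonIR glands is given in the sources used here, so irradiation and vector cannot be told apart in a comparison with NonIR. The labels tie no replicate to an animal, and all p-values measure the spread between these libraries, which may be technical.

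Libraries held 9724301 to 16771003 reads assigned to genes, and 20023 to 21216 genes had at least 1 read. Values below are CPM, read counts brought to a common library size with TMM factors, and 1 read was worth 0.0587 to 0.0844 CPM. All 11 acinar markers and all 8 markers of the granular convoluted tubule, the duct segment typical of this gland in mice, were detected. The acinar list summed to between 83949 and 227263 CPM per library. PreIR-GFP 2 carried 180 CPM of a list of 4 skeletal muscle markers, against 1.47 to 3.28 CPM in the other 12 libraries. PreIR-GFP 1 was lowest in the summed acinar markers and in the granular convoluted tubule markers (7853 CPM, against 9586 to 30964 CPM in the rest) and highest in neuron and glia markers (24.2 CPM, against 6.16 to 10.5 CPM). These are the same libraries that were highest in Fos. For Fos and Egr1, the fold changes that involve PreIR-GFP, the within-group spread and their correlation are given with and without them. Group means are given only with them. No correlation of Fos with a library measure leaves out both, though some leave out 1 of them. In whole-tissue RNA, fewer cells of a type and less RNA per cell cannot be told apart.

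RefSeq promoters of the GRCm38.p6 build were matched by symbol for 8 of the 10 members, without Egr1 and Ier2. The 250 bases before the start of Fos, Junb, Dusp1 and Ier3 are shown because they span what was found: Fos and Junb are the members whose groups separated, and Dusp1 and Ier3 are members highest in NonIR 2, with and without a match. Capitals mark the CRE half-site TGACG, a core of the site bound by CREB and related factors, or the full CRE TGACGTCA, on either strand.
Fos, chr12:85473640-85473889, plus strand: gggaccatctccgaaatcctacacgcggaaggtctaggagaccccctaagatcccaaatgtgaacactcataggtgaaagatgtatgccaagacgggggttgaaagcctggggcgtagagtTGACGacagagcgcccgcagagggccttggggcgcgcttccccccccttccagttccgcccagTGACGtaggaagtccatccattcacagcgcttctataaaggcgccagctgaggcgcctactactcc
Junb, chr8:84978749-84978998, minus strand: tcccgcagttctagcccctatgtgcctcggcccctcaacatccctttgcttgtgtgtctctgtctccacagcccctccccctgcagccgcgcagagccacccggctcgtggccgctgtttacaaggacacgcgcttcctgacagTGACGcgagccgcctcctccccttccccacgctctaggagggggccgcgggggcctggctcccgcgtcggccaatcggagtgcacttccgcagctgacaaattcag
Dusp1, chr17:26508473-26508722, minus strand: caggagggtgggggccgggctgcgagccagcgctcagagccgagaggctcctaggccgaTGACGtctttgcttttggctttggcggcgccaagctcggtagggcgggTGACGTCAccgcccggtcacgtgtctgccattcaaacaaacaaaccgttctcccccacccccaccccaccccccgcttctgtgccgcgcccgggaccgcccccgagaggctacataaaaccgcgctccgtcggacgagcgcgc
Ier3, chr17:35821463-35821712, plus strand: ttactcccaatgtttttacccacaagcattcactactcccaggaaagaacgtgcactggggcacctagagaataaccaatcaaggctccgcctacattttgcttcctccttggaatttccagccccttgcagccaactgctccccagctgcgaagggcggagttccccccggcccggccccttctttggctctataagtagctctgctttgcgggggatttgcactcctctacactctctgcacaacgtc

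The half-site TGACG was present in 5 of the 8 promoters (Fos, Fosb, Junb, Atf3 and Dusp1) and in 17.8% of 32851 mouse promoters of the same length, both strands searched. In Fos it stood at bases -129 to -125 and -66 to -62 before the start, with TATAAA at -33 to -28. In Junb it stood at -106 to -102. Dusp1 alone among the 8 had the full CRE, at -143 to -136, which 1.55% of all promoters had and which holds the half-site on both strands, beside a separate half-site at -191 to -187. The AP-1 site TGANTCA, present in 6.75% of all promoters, was found in none of the 8, nor was a CArG box, the site of SRF, present in 1.47%. The EGR site GCGNGGGCG was found in Fosb, against 4.70% of all promoters. A match is a run of letters in this window and says nothing of binding. Letters outside the window were not searched, nor were the promoters of Egr1 and Ier2, so a missing site is stated for the 8 only.

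Per kilobase of exon, Klf6 had the highest level of the set and Fosb the lowest. Klf6 averaged 11.5 CPM per kb over the 13 libraries and lay above 83.1% of the genes tested. Ier2 averaged 4.75, Ier3 4.70 and Jun 3.17 CPM per kb, all above the median of 2.13 over all genes tested. Junb (1.73), Fos (1.18), Dusp1 (0.836), Atf3 (0.605) and Egr1 (0.300 CPM per kb) lay below it, and Fosb averaged 0.0125 CPM per kb. Klf6 was above Ier2 in 13 of 13 libraries, and Egr1 above Fosb in 13 of 13. Other neighbours in the order were less separate: Ier2 was above Ier3 in 8 of 13 libraries and Fos above Dusp1 in 7 of 13, so neither pair can be ordered beyond its spread. Jun was above Junb in 12, Ier3 above Jun in 12, Junb above Fos in 11, Atf3 above Egr1 in 11 and Dusp1 above Atf3 in 10.

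**Figure D1:**
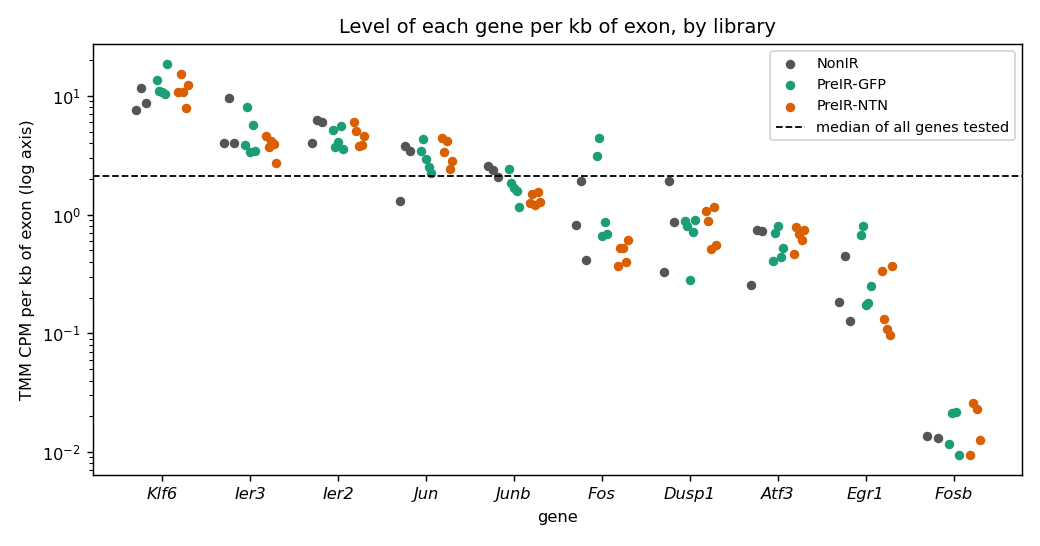
Level of each member per library, in CPM per kb of exon on a log axis, 1 point per library coloured by group. Klf6 lies highest, between 7.68 and 18.7 CPM per kb, Fos spreads from 0.366 to 4.46 CPM per kb, and the 3 libraries without a Fosb read cannot be drawn on this axis.

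Fos encodes the AP-1 subunit c-Fos, which binds DNA as a dimer with a Jun protein, and is the usual marker of recent cell activation. Its gene (ENSMUSG00000021250) lies on the plus strand of chromosome 12 at 85473890 to 85477273 of GRCm38. Fos stood at 1.92, 4.47 and 0.981 CPM in NonIR libraries 1 to 3, at 7.32, 10.5, 1.56, 2.02 and 1.60 CPM in PreIR-GFP 1 to 5, and at 0.860, 1.23, 1.22, 0.943 and 1.43 CPM in PreIR-NTN 1 to 5. PreIR-GFP 1 and PreIR-GFP 2 were the highest, NonIR 2 the third, and the 5 PreIR-NTN libraries all lay below the 5 PreIR-GFP libraries. The gap between those groups was narrow, since PreIR-GFP 3 had 20 Fos reads and PreIR-NTN 5 had 18.

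The group means of Fos were 2.46 ± 1.81 CPM (SD, n = 3) in NonIR, 4.60 ± 4.09 (SD, n = 5) in PreIR-GFP and 1.14 ± 0.232 (SD, n = 5) in PreIR-NTN. PreIR-NTN minus PreIR-GFP gave a log2 fold change of -2.01 (SE 0.60, 95% interval -3.31 to -0.71), with an edgeR unadjusted p of 0.00557 and an adjusted p of 0.618, so it did not pass. DESeq2 gave it an adjusted p of 0.0664, the lowest of the alternatives, which reached up to 1.00. Without PreIR-GFP 1 and 2 together the log2 fold change of Fos was -0.57 (edgeR unadjusted p = 0.183). Against NonIR, the log2 fold change was 0.91 (SE 0.67, edgeR adjusted p = 0.753) in PreIR-GFP and -1.10 (SE 0.69, edgeR adjusted p = 0.745) in PreIR-NTN. The first of these turned to -0.53 without PreIR-GFP 1 and 2 together and stood at 1.64 without NonIR 2, and the second was -0.36 without NonIR 2.

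Markers of connective tissue and of immune and nerve cells also had log2 fold changes mostly below 0 in PreIR-NTN minus PreIR-GFP, with 1 of them past the edgeR threshold. Over all genes tested, 47.3% stood above 0 and 0.0204% passed. Other lists lay on both sides. Below 0 stood 8 of 10 duct and 5 of 8 endothelial markers. Above 0 stood 8 of 8 granular convoluted tubule and 7 of 11 acinar markers. The 7 fibroblast markers summed to 244 to 390 CPM in PreIR-GFP, 150 to 200 CPM in PreIR-NTN and 237 to 284 CPM in NonIR. All 7 had a log2 fold change below 0 in PreIR-NTN minus PreIR-GFP, with a median of -0.69, and the 1 that passed was of this list. The 8 macrophage markers summed to 124 to 205, 76.2 to 121 and 113 to 126 CPM in the same order, with 8 of 8 below 0 and a median of -0.45. Below 0 stood also 6 of 7 B and plasma cell markers (median -0.65), 5 of 5 tested T and NK cell markers (median -0.40) and 4 of 5 tested neuron and glia markers (median -0.97). The last of these rests largely on PreIR-GFP 1. The mean centred log2 CPM of the neuron and glia list was 1.84 there, -0.95 to 0.49 in PreIR-GFP 2 to 5 and -1.06 to 0.49 in PreIR-NTN. In that list 0 markers had an unadjusted edgeR p under 0.05, and 0 of the 5 tested T and NK cell markers. At that level stood 6 of 7 fibroblast, 5 of 8 macrophage and 3 of 7 B and plasma cell markers, beside 6.08% of all genes. No marker of these lists was at 0 in every library, and their part in the values of Fos was not tested.

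Fosb, a relative of Fos best known from neurons, was near the limit of detection. It had 14 reads in all 13 libraries together, at most 2 in any of them, and 0 in NonIR 1, PreIR-GFP 3 and PreIR-NTN 1. In those 3 libraries a count of 0 allows up to 0.205, 0.235 and 0.215 CPM. A difference between groups in Fosb was not detectable at this depth. Such limits, and all intervals on counts, cover counting error only, because PCR copies were not marked by molecular identifiers and reads are not independent molecules.

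Junb encodes a Jun family subunit of AP-1, often a brake on Jun. Its gene (ENSMUSG00000052837) lies on the minus strand of chromosome 8 at 84974484 to 84978718. Junb stood at 5.95, 5.49 and 4.74 CPM in NonIR 1 to 3, at 5.58, 4.22, 3.83, 3.64 and 2.67 CPM in PreIR-GFP 1 to 5, and at 2.87, 3.40, 2.77, 3.55 and 2.93 CPM in PreIR-NTN 1 to 5. All 5 PreIR-NTN libraries were below all 3 NonIR libraries, while PreIR-GFP reached across both ranges. The means were 5.39 ± 0.612 (SD, n = 3), 3.99 ± 1.06 (SD, n = 5) and 3.11 ± 0.349 CPM (SD, n = 5) in the order NonIR, PreIR-GFP, PreIR-NTN.

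For Junb, PreIR-NTN minus NonIR gave a log2 fold change of -0.79 (SE 0.22, 95% interval -1.25 to -0.33), an edgeR unadjusted p of 0.00212 and an adjusted p of 0.393, which did not pass. Over the 21 alternatives this value ran from -0.88 to -0.64, with adjusted p-values of 0.152 (DESeq2) to 0.976. PreIR-GFP minus NonIR was -0.44 (SE 0.22, edgeR adjusted p = 0.589) and PreIR-NTN minus PreIR-GFP -0.36 (SE 0.19, edgeR adjusted p = 0.852), and these comparisons share libraries. Without PreIR-GFP 1 and 2 together, the first of the pair was -0.70 and the second -0.08. Junb overlaps Prdx2, a peroxiredoxin gene on the opposite strand, and the sources used here do not say whether counting used strand. Reads in the shared bases can therefore not be assigned to Junb with certainty. The same limit holds for Jun and Dusp1, which also overlap a gene on the opposite strand. Prdx2 averaged 152 CPM and had log2 fold changes of 0.02, -0.12 and -0.09 in PreIR-GFP minus NonIR, PreIR-NTN minus PreIR-GFP and PreIR-NTN minus NonIR.

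Jun, the founding Jun family gene and the usual partner of Fos, ran from 4.17 CPM in NonIR 1 to 14.1 CPM in PreIR-NTN 1. Its means were 9.09 ± 4.30 (SD, n = 3), 9.87 ± 2.60 (SD, n = 5) and 10.9 ± 2.69 CPM (SD, n = 5) in NonIR, PreIR-GFP and PreIR-NTN, and the 3 groups overlapped. The log2 fold changes were 0.12, 0.15 and 0.27 in PreIR-GFP minus NonIR, PreIR-NTN minus PreIR-GFP and PreIR-NTN minus NonIR, each well inside the spread. The antisense gene Junos overlaps Jun and averaged 3.97 CPM. Atf3, a stress-induced bZIP factor, averaged 1.23 ± 0.596 (SD, n = 3), 1.24 ± 0.369 (SD, n = 5) and 1.41 ± 0.272 CPM (SD, n = 5). Its lowest value was 0.547 CPM in NonIR 1 and its highest 1.72 CPM in PreIR-GFP 3.

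**Figure D2:**
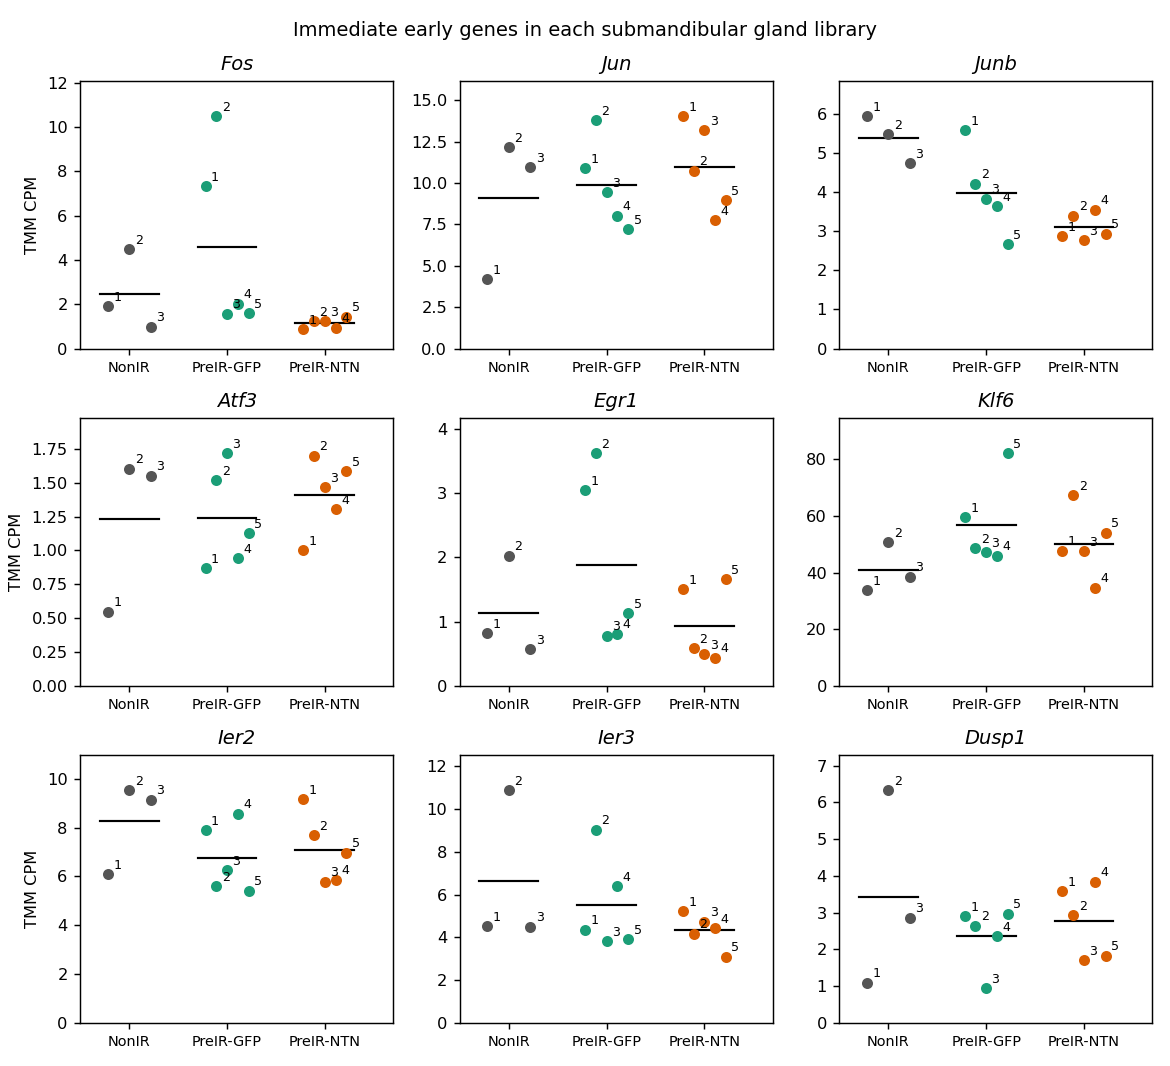
CPM of the tested members in each library, 1 panel per gene, with points coloured by group and numbered by replicate, and a line at each group mean. The highest Fos and Egr1 points are PreIR-GFP 1 and 2, and in the Junb panel the 5 PreIR-NTN points lie below the 3 NonIR points.

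Egr1 encodes a zinc finger factor induced by growth factors through SRF, and its gene is ENSMUSG00000038418. Egr1 stood at 0.821, 2.03 and 0.572 CPM in NonIR 1 to 3, at 3.05, 3.63, 0.782, 0.809 and 1.13 CPM in PreIR-GFP 1 to 5, and at 1.51, 0.587, 0.489, 0.435 and 1.67 CPM in PreIR-NTN 1 to 5. The top 3 libraries were those of Fos in the same order, and all 3 groups overlapped. PreIR-NTN minus PreIR-GFP had a log2 fold change of -1.01 (SE 0.54, edgeR adjusted p = 0.852), and it was 0.05 without PreIR-GFP 1 and 2 together. PreIR-GFP minus NonIR was 0.73 (SE 0.62, edgeR adjusted p = 0.795), turning to -0.33 without those libraries and standing at 1.41 without NonIR 2. PreIR-NTN minus NonIR was -0.28 (edgeR adjusted p = 0.944), and 0.40 without NonIR 2. Egr1 had 245 reads over the 13 libraries, as few as 6 in 2 of them, so counting error alone is large there.

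Klf6, a zinc finger factor of the Krüppel-like family that is expressed in many unstimulated tissues, ran from 33.7 CPM in NonIR 1 to 82.3 CPM in PreIR-GFP 5. Its means were 41.0 ± 8.75 (SD, n = 3) in NonIR, 56.7 ± 15.3 (SD, n = 5) in PreIR-GFP and 50.2 ± 11.9 CPM (SD, n = 5) in PreIR-NTN. PreIR-GFP minus NonIR was 0.47 on the log2 scale (SE 0.23, 95% interval -0.01 to 0.95, edgeR adjusted p = 0.579). Without PreIR-GFP 5 it was 0.29 (edgeR adjusted p = 0.739). The groups overlapped, with NonIR 2 at 50.7 CPM above 3 of the 5 PreIR-GFP libraries.

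Dusp1 encodes the phosphatase MKP-1, which removes phosphate from p38, JNK and ERK. It stood at 1.09, 6.33 and 2.86 CPM in NonIR 1 to 3, at 2.90, 2.64, 0.938, 2.36 and 2.97 CPM in PreIR-GFP 1 to 5, and at 3.58, 2.93, 1.71, 3.84 and 1.82 CPM in PreIR-NTN 1 to 5. NonIR 2 was the highest and NonIR 1 among the 2 lowest, so the NonIR group spanned nearly the whole range. The log2 fold changes were -0.52, 0.23 and -0.28 in PreIR-GFP minus NonIR, PreIR-NTN minus PreIR-GFP and PreIR-NTN minus NonIR. Without NonIR 2 the first and the last were 0.28 and 0.51. Dusp1 overlaps Ergic1 on the opposite strand, a gene of the early secretory route that averaged 238 CPM.

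Ier3, which encodes a short-lived protein of cell survival and ERK signalling, stood at 4.52, 10.9 and 4.49 CPM in NonIR 1 to 3. PreIR-GFP 1 to 5 had 4.35, 9.04, 3.83, 6.41 and 3.92 CPM, and PreIR-NTN 1 to 5 had 5.23, 4.16, 4.72, 4.42 and 3.09 CPM. NonIR 2 and PreIR-GFP 2 stood above the rest, and the groups overlapped. PreIR-NTN minus NonIR had a log2 fold change of -0.61 (SE 0.33, edgeR adjusted p = 0.683) and -0.06 without NonIR 2. Ier2, an early response nuclear protein, had the narrowest range of the tested members from lowest to highest, between 5.41 and 9.54 CPM, with log2 fold changes of -0.29, 0.07 and -0.21 in PreIR-GFP minus NonIR, PreIR-NTN minus PreIR-GFP and PreIR-NTN minus NonIR.

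Set side by side, 0 of the 9 tested members passed the edgeR quasi-likelihood test at an adjusted p under 0.05 in any of the 3 comparisons. Over all 14727 genes the share that passed was 0.0340% in PreIR-GFP minus NonIR, 0.0204% in PreIR-NTN minus PreIR-GFP and 0.0204% in PreIR-NTN minus NonIR. DESeq2 and limma-voom also called 0 of 9 in each. At an unadjusted edgeR p under 0.05 the members counted were 0, 1 (Fos) and 1 (Junb), against 8.78%, 6.08% and 7.97% of all genes. DESeq2 counted 0, 1 and 1 at that level, and limma-voom 1, 1 and 1. Groups did not overlap for 0, 1 (Fos, lower) and 1 (Junb, lower) of 9 members, against 5.14%, 1.11% and 6.52% of all genes. The shares of all genes without overlap were 2.87% higher and 2.27% lower in PreIR-GFP minus NonIR, 0.394% higher and 0.720% lower in PreIR-NTN minus PreIR-GFP, and 3.22% higher and 3.30% lower in PreIR-NTN minus NonIR. The median log2 fold change of the 9 members was 0.02, -0.17 and -0.28, and that of all genes 0.02, -0.01 and 0.00. Above 0 stood 5, 4 and 3 of the 9 members, against 52.7%, 47.3% and 50.5% of all genes. A share of 1 in 9 members is 1 gene and was read as no more than that.

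**Figure D3:**
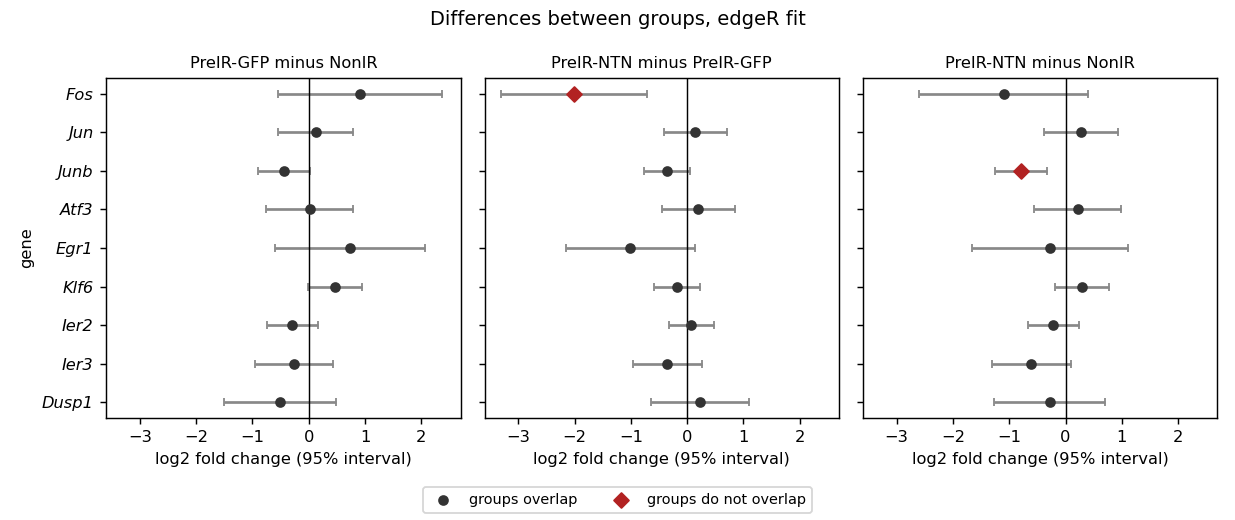
Log2 fold change of each tested member in the 3 comparisons, with 95% intervals from the edgeR fit. Red diamonds mark members whose groups do not overlap: Fos at -2.01 in PreIR-NTN minus PreIR-GFP and Junb at -0.79 in PreIR-NTN minus NonIR.

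The members differed widely in how steady they were. Across the 13 libraries the highest value was 12.2 times the lowest for Fos, 8.34 times for Egr1 and 6.75 times for Dusp1, but 2.44 times for Klf6, 2.23 times for Junb and 1.76 times for Ier2. Within groups, the SD of log2 CPM was 0.93 for Fos, 0.88 for Egr1 and 0.74 for Dusp1, larger than for 95.7%, 94.8% and 91.7% of the genes tested. Junb (0.26) and Ier2 (0.30) lay under the median of 0.32 over all genes. The biological coefficient of variation fitted by edgeR, which takes counting error out, gave the same order at the top: 0.601 for Fos, 0.555 for Egr1 and 0.431 for Dusp1, above 96.2%, 95.2% and 90.2% of genes. Without PreIR-GFP 1 and 2 together, the SD of Fos was 0.55, that of Egr1 0.71 and that of Dusp1 0.81, larger than for 82.8%, 91.0% and 94.0% of genes. The coefficients were then 0.356, 0.441 and 0.475 (above 87.0%, 92.8% and 94.2% of genes), and the highest value was 5.20 times the lowest for Fos and 4.66 times for Egr1. The order of the 3 genes was thus reversed without those libraries. Without NonIR 2 the highest Dusp1 value was 4.10 times the lowest, and its SD was 0.62.

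No single library was the highest in every member. NonIR 2 ranked between 1 and 5 of 13 in each of the 9 tested members, was highest for Ier2, Ier3 and Dusp1, and had the highest mean rank, 2.67 with 1 as the highest of 13. PreIR-GFP 2 was highest for Fos and Egr1 and PreIR-GFP 1 for none, with mean ranks of 4.78 and 5.22. Junb was highest in NonIR 1, Atf3 in PreIR-GFP 3, Klf6 in PreIR-GFP 5 and Jun in PreIR-NTN 1. NonIR 1 was lowest for Jun, Atf3 and Klf6 while highest for Junb, so even 1 gland could stand at both ends. PreIR-NTN 4 had the lowest mean rank, 9.33.

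**Figure D4:**
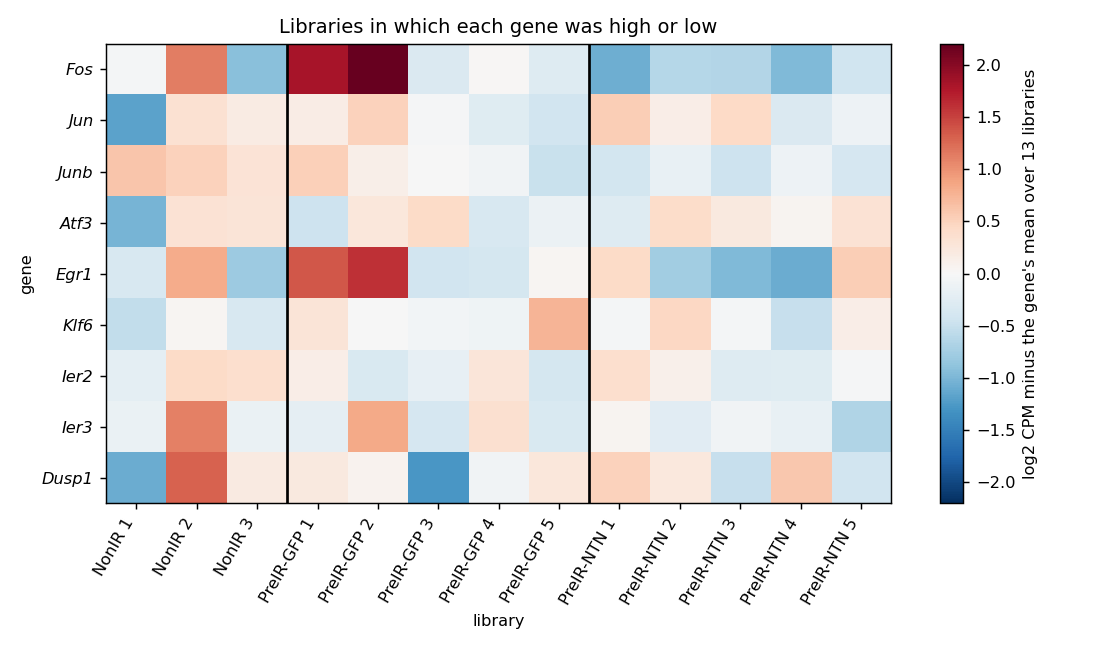
Log2 CPM of the tested members in the 13 libraries, each gene centred on its own mean, with libraries in columns ordered by group. Fos and Egr1 are high in PreIR-GFP 1 and 2 and NonIR 2, whereas Dusp1 is high in NonIR 2 and near its mean in PreIR-GFP 1 and 2.

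Fos was set against 8 other members over the 13 libraries, on log2 CPM, with permutation p-values adjusted over the 8. Egr1 was the member closest to Fos, with Pearson's r = 0.822 (permutation p = 0.00085, adjusted p = 0.0068) and Spearman's rho = 0.698 (permutation p = 0.0106, adjusted p = 0.0850). With each group centred on its own mean, r was 0.794 (permutation adjusted p = 0.0115) and rho 0.830 (permutation adjusted p = 0.00568). Without PreIR-GFP 1 and 2, the libraries farthest from the median of Fos, r was 0.533 (permutation adjusted p = 0.250), so the r rests on those libraries. Ier3 (r = 0.591, rho = 0.258) and Junb (r = 0.547, rho = 0.538) did not pass, with permutation adjusted p-values of r of 0.122 and 0.137. Jun, the AP-1 partner of Fos (r = 0.204), Klf6 (0.192), Dusp1 (0.163), Ier2 (-0.05) and Atf3 (-0.08) did not pass either.

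**Figure D5:**
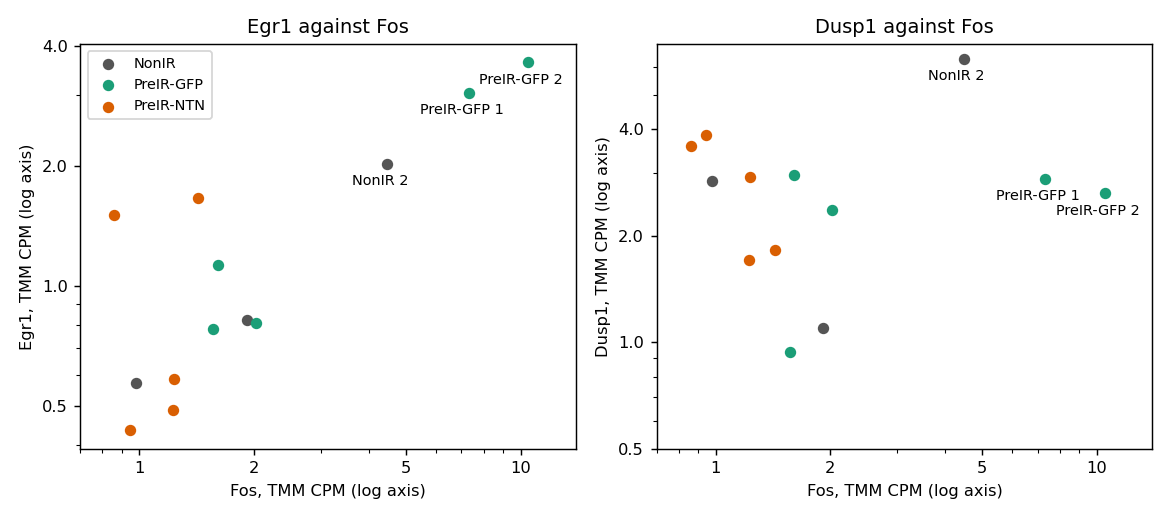
Egr1 and Dusp1 against Fos, in CPM on log axes, 1 point per library coloured by group. Egr1 is highest in the 3 libraries highest in Fos (r = 0.822), while Dusp1 at the same Fos levels lies within the range of the other libraries except in NonIR 2 (r = 0.163).

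Fos was also compared with 12 measures of handling, depth and tissue make-up over the 13 libraries, and none passed after adjustment over the 12. The heat shock list, of heat shock and chaperone genes, gave r = -0.408 and rho = -0.269 (permutation adjusted p = 0.584 and 0.791). For the hypoxia list r was -0.106 and rho -0.143 (permutation adjusted p = 0.792 and 0.834). Heat shock transcripts summed to 352 to 392 CPM in NonIR, 355 to 442 in PreIR-GFP and 357 to 442 in PreIR-NTN. The sum was 355 CPM in PreIR-GFP 1 and 352 CPM in NonIR 2, the lowest of their groups, and 422 CPM in PreIR-GFP 2. Hspa8 alone averaged 195, 221 and 209 CPM in NonIR, PreIR-GFP and PreIR-NTN, and Hspa1a 0.651, 0.611 and 0.686 CPM. The sums thus rest largely on Hspa8 and hardly on Hspa1a. On the mean centred log2 CPM used for r, NonIR 2 (0.04) stood above NonIR 1 (-0.19). PreIR-GFP 1 was at -0.42 and PreIR-GFP 2 at -0.04. The fibroblast list had the largest r, 0.647 (permutation p = 0.0163, adjusted p = 0.196), with rho = 0.648 (permutation adjusted p = 0.120). It was 0.342 with groups centred, and 0.430 without the 2 libraries farthest from its median (PreIR-GFP 1 and PreIR-NTN 1). The macrophage list had r = 0.496 (permutation adjusted p = 0.520) and rho = 0.703 (permutation adjusted p = 0.114). Its r was -0.0087 with groups centred. Without the 2 libraries farthest from its median (PreIR-GFP 5 and PreIR-NTN 3), r was 0.681 (permutation adjusted p = 0.266). There rho was 0.773 (permutation adjusted p = 0.0850), with PreIR-GFP 1 and 2, the highest in Fos, still included. Total reads (r = -0.273), genes with a read (0.316), mitochondrial reads (0.350), the share of the 50 most abundant genes (-0.347) and the acinar, granular tubule, duct and endothelial lists (-0.200, -0.239, 0.105 and 0.068) did not pass either. The time from removal to lysis of each gland is not stated in the sources used here.

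A wider list of 56 other immediate early and early response genes had 45 members tested and 0 past the edgeR threshold in any comparison. At an unadjusted edgeR p under 0.05 there were 2, 4 and 4 of 45 in PreIR-GFP minus NonIR, PreIR-NTN minus PreIR-GFP and PreIR-NTN minus NonIR, beside 8.78%, 6.08% and 7.97% of all genes. Their median log2 fold changes were 0.03, -0.01 and -0.11. The whole list summed to 1243 CPM in NonIR 2, against 878 to 1052 CPM in the other 12 libraries. The mean of its tested genes, each centred on log2 CPM, was also highest in NonIR 2 (0.25), followed by PreIR-NTN 5 (0.21), and lowest in NonIR 1 (-0.26). No read of Egr4 or Npas4, both best known from neurons, was found in any library. The most abundant of the list per kb was Btg2, an antiproliferative gene downstream of p53, at 124 CPM per kb. Btg2 averaged 437 ± 90.5 (SD, n = 3), 340 ± 86.0 (SD, n = 5) and 281 ± 16.7 CPM (SD, n = 5) in NonIR, PreIR-GFP and PreIR-NTN. PreIR-NTN minus NonIR was -0.64 for Btg2 (SE 0.18, edgeR unadjusted p = 0.00247, adjusted p = 0.393), and those groups did not overlap. The same held for 3 of the 45 tested genes of the list, Btg2 included, and for 6.52% of all genes. Myc (25.1 CPM per kb), Id2 (21.0), Errfi1 (15.9), Nfkbia (13.3) and Nr4a1 (12.5) followed, and each had log2 fold changes between -0.26 and 0.20 in the 3 comparisons.

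The 26 kinases and transcription factors that act upstream of these genes were all tested, and 0 passed with edgeR in any comparison, with 2, 1 and 2 at an unadjusted p under 0.05 beside 8.78%, 6.08% and 7.97% of all genes. Their median log2 fold changes were 0.06, -0.08 and -0.02. Braf, the kinase at the head of the ERK cascade, was the most abundant at 34.9 CPM per kb, followed by Mkl2, a cofactor of SRF, at 24.6 and Mapk3, which encodes ERK1, at 15.1. Srf itself, named after its values were seen, averaged 8.42 ± 4.52 (SD, n = 3), 8.57 ± 1.68 (SD, n = 5) and 13.6 ± 3.73 CPM (SD, n = 5) in NonIR, PreIR-GFP and PreIR-NTN, with PreIR-NTN minus PreIR-GFP at 0.66 (SE 0.29, edgeR adjusted p = 0.805).

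By the profile of the members' mean over the 13 libraries with groups centred, the most similar transcripts outside the set were Mlh3, a DNA mismatch repair gene (r = 0.911), and Nlgn2, a neuroligin (r = 0.907). Gm8034 (0.886), Gm26880 (0.883), Sel1l3 (0.851), Cd24a (0.847) and Eif3j1 (0.834) came next, and Zfp697 (0.824), Agmo (0.823) and Gsap (0.816) closed the first 10. These r are a description over 13 libraries that share depth and scaling, chosen as the highest among all genes. None of the 10 was on the list of other immediate early genes.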

How the data were processed

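RNA from 13 submandibular gland libraries was analysed, in groups taken from the labels. Per the labels' protocols, cDNA was made with SMART-Seq v4 and libraries with Nextera XT on a NextSeq 500. Alignment used STAR 2.5.2a and GRCm38.p3, also named mm10, per the submitters' processing notes, which list DESeq2, edgeR and limma too. The sources used here do not say how reads were counted, whether strand was used, or what each package did. Another instrument and triplicates stand in the series text, but the labels of the samples were taken.

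The authors deposited raw read count values for 48733 entries, of which 48709 are genes. A second deposited table of 17957 entries gives normalised signal (CPM), whose values were each library's counts times 1 constant (100% whole reads within 0.01). Counts were used for every result except 1 alternative.

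Genes kept by filterByExpr (14727) were fitted with edgeR 4.0.16 (R 4.3.3; TMM, robust quasi-likelihood F test, two-sided, all 13 libraries, 1 mean per group), with Benjamini-Hochberg adjustment over all of them and a threshold of 0.05. The log2 CPM values used a prior count of 2. Alternatives were DESeq2 1.42.0, its size factors within edgeR, limma-voom 3.58.1, no filter beyond 1 read, the 2 compared groups alone, the replicate number as a block, limma on the deposited values with a pseudocount of 1, and each library left out. Leaving out PreIR-GFP 1 and 2 together, and the spread of members without them or without NonIR 2, were chosen after seeing the data. Correlations used 100000 permutations. The fit was also run on simulated counts, drawn from its own mean and spread for each gene. Those counts hold no outlying libraries, so they cannot show how the test behaves with libraries such as PreIR-GFP 1 and 2.

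The members and gene lists were chosen with earlier results of these data known. Genes of the wider lists were named by rule, as the most abundant per kb (6 early genes and 3 upstream genes), apart from Srf, Egr4 and Npas4 in the report and those in the closing section. Counts of 0 allow up to 3 reads.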

Additional observations from a re-analysis of the deposited data

How the results depend on the processing

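No member passed the threshold in any of the 567 fold changes obtained under 21 alternatives. The within-group SD of log2 CPM of Fos was 0.55 without PreIR-GFP 1 and 2 together, against 0.93. The sign turned in 18 of these, in 13 of 27 pairs of member and comparison. Without PreIR-GFP 1 and 2 together, PreIR-GFP minus NonIR was -0.53 for Fos, -0.33 for Egr1 and -0.17 for Jun, and PreIR-NTN minus PreIR-GFP was 0.054 for Egr1. With limma-voom, Dusp1 was 0.044 in PreIR-NTN minus NonIR. With each library left out in turn, PreIR-GFP minus NonIR ran from -0.21 to 0.38 for Jun, -0.51 to 0.29 for Ier3, -0.34 to 0.25 for Atf3 and -0.94 to 0.28 for Dusp1. PreIR-NTN minus PreIR-GFP ran from -0.034 to 0.18 for Ier2 and -0.27 to 0.011 for Klf6. PreIR-NTN minus NonIR ran from -0.062 to 0.54 for Jun, -0.59 to 0.40 for Egr1, -0.14 to 0.45 for Atf3 and -0.72 to 0.51 for Dusp1. The lowest or highest of these came without NonIR 1 or NonIR 2 in the comparisons with NonIR, except for the low end of Ier3 (without PreIR-GFP 2) and of Egr1 (without NonIR 3).

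Weak correlations with Fos also turned sign. With groups centred, r was 0.064 for Atf3, 0.016 for Ier2, -0.12 for the endothelial list and -0.0087 for the macrophage list. Without the 2 libraries farthest from the median of Fos, r was 0.200 for Ier2 and -0.16 for Jun. Without the 2 farthest from the median of each list, it was -0.12 for the duct list, -0.013 for the endothelial list and 0.307 for the granular convoluted tubule list.

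Over all genes, edgeR called 5, 3 and 3 in PreIR-GFP minus NonIR, PreIR-NTN minus PreIR-GFP and PreIR-NTN minus NonIR. DESeq2 called 73, 38 and 31, no filter gave 20 and 10 in the first 2 comparisons, limma on the deposited values 9 in the first, and limma-voom 0 (1126 at an unadjusted p under 0.05) in the first and 1 in the last. The 2 groups alone gave 0 (1007 and 815 unadjusted) in the first 2 comparisons. Without PreIR-GFP 1 and 2 together the counts were 1, 1 and 5. Leaving out each library in turn gave 0 to 17, 0 to 11 and 0 to 4. The replicate block called 0 in each comparison and 0 members. Same-numbered libraries correlated over 0.1 in 3 of 11 pairs (r from -0.43 to 0.28). No pairs of different number are set beside them, so whether the numbers mark pairs or a shared batch cannot be told from these r. The r of Fos with Egr1 was 0.533 without its 2 farthest libraries. The cause of these differences was not tested. Members at a few reads, Fosb above all, limit what this depth can show.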

Other observations

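Other early genes are given here, named after their values were seen, and none was past the edgeR threshold. Trib1, a pseudokinase that scaffolds protein degradation, averaged 8.40 ± 0.794 CPM (SD, n = 3) in NonIR, 10.2 ± 0.888 (SD, n = 5) in PreIR-GFP and 7.66 ± 1.00 (SD, n = 5) in PreIR-NTN. PreIR-GFP did not overlap with either of the other groups, and PreIR-NTN minus PreIR-GFP was -0.42 on the log2 scale (SE 0.13, edgeR unadjusted p = 0.00571, adjusted p = 0.618). Of the 45 tested genes of the list, 2 had no overlap in PreIR-GFP minus NonIR and 1 in PreIR-NTN minus PreIR-GFP. The shares of all genes were 5.14% and 1.11%. Rhob, a small GTPase induced by DNA damage, averaged 7.15 ± 1.14 (SD, n = 3), 4.22 ± 1.81 (SD, n = 5) and 4.61 ± 0.675 CPM (SD, n = 5), with PreIR-GFP minus NonIR at -0.76 (edgeR adjusted p = 0.449). Sgk1, a kinase induced by steroids and serum, averaged 41.5 ± 9.15 (SD, n = 3), 29.7 ± 6.67 (SD, n = 5) and 30.4 ± 4.49 CPM (SD, n = 5), with PreIR-GFP minus NonIR at -0.48 (edgeR adjusted p = 0.496).

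The count table holds an entry for EGFP, and it had 0 reads in all 13 libraries, including the 5 PreIR-GFP libraries. No member was an outlier within a group of 5 by Dixon's ratio at the 95% level (0 of 18 combinations of member and group). That ratio cannot single out a pair of high libraries such as PreIR-GFP 1 and 2.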
